A study of Mus musculus with 4 samples.

Results

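The nuclear genes of the mitochondrial respiratory chain and of ATP synthase were compared between F5446-treated and untreated SW620 cells, a line from a human colon carcinoma. The members were taken by gene symbol from the array's annotation, as genes of complexes I to V and the proteins that assemble them, and 44 of the 14884 named genes qualified. F5446 inhibits SUV39H1, a methyltransferase of lysine 9 on histone H3, selectively according to the labels. The F5446 group holds 2 arrays of cells given 50 nM for 2 days, and the Ctrl group holds 2 arrays of untreated cells of the same line. The design text speaks of biological replicates and names no separate cultures, and the p-values therefore reflect how far these arrays spread, which may be technical. Mouse is the organism entered in the labels, yet SW620 is human and so are the gene symbols of the platform, and the data were read as human.

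The respiratory chain passes electrons from NADH and succinate through ubiquinone and cytochrome c to oxygen, and ATP synthase uses the resulting proton gradient to make ATP. Complex I takes electrons from NADH and complex II from succinate, complex III hands them to cytochrome c, and complex IV, cytochrome c oxidase, reduces oxygen. Each complex other than complex II combines subunits encoded in the mitochondrial DNA with nuclear subunits. Assembly factors insert the haem, copper, flavin and iron-sulphur groups and are absent from the finished enzyme.

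The 44 genes cover the complexes unevenly. Complexes I and II are represented by 4 assembly factors each, complex III by 8 genes, complex IV by 25 and ATP synthase by 3. By class, 17 are ubiquitous subunits, 18 assembly factors, 6 tissue-restricted isoforms of complex IV subunits, 2 copies of complex III genes (the pseudogene UQCRBP1 and the paralogue UQCRHL), and 1 is the ATP synthase inhibitor ATP5IF1. The subunits of complexes I and II, cytochrome c and the catalytic subunits of ATP synthase were not analysed here, and neither were the subunits encoded in mitochondrial DNA.

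Each array gave 1 log2 signal per probe set, with array medians of 4.43 and 4.44 in F5446 cells and 4.40 and 4.41 in Ctrl cells. Over the 44 genes the log2 difference between arrays had an SD of 0.219 within the F5446 group and 0.191 within the Ctrl group, and 0.591 to 0.609 between an F5446 and a Ctrl array. Of 11 measured markers of colon epithelium, 8 lay at or above a log2 signal of 4.42, the median of all values, on all arrays. The epithelial adhesion gene EPCAM had 10.23 and 10.34 in F5446 cells, against 10.97 and 11.11 in Ctrl cells. Of the 11, 6 fell and 2 rose, where 22.7% of all genes fell and 18.2% rose, so the share that rose lies near that of all genes. The largest fall was that of VIL1, the microvillus protein villin, with 6.37 and 6.47 in F5446 cells, against 10.35 and 10.23 in Ctrl cells. The rises were those of the adhesion protein CEACAM5, with 6.33 and 6.44 in F5446 cells, against 4.62 and 4.30 in Ctrl cells, and of the keratin KRT19, with 10.56 and 10.55 in F5446 cells, against 10.12 and 10.01 in Ctrl cells. The mean over the 11 markers was 6.76 on both F5446 arrays and 7.24 and 7.28 on the Ctrl arrays, and without VIL1 it was 6.80 and 6.78 on the F5446 arrays and 6.93 and 6.99 on the Ctrl arrays, a mean chosen after seeing the data. Of 5 immune markers measured, CD2 and CD14 lay under 4.42 on all arrays and LYZ, CD68 and NKG7 above it. CD68, a lysosomal protein abundant in macrophages, had 11.50 and 11.47 in F5446 cells, against 7.83 and 7.77 in Ctrl cells, whereas LYZ, lysozyme, had 4.84 and 5.01 in F5446 cells, against 6.77 and 6.66 in Ctrl cells. The immune mean was 5.91 and 5.90 on the F5446 arrays and 5.51 and 5.48 on the Ctrl arrays. Of 4 stromal and endothelial markers, DCN, PECAM1 and VWF lay under 4.42 on all arrays, and LUM, a matrix proteoglycan, had 4.20 and 3.83 in F5446 cells, against 7.04 and 7.03 in Ctrl cells. Their mean was 3.50 and 3.58 on the F5446 arrays and 4.16 and 4.15 on the Ctrl arrays. The part of these markers in the results was not tested.

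After F5446, respiratory chain and ATP synthase genes fell more often than they rose. Of the 44 genes, 21 fell (47.7%), 4 rose and 19 did not pass limma's test at an adjusted p of 0.05. Over all 14884 genes 40.9% passed, 22.7% lower and 18.2% higher. Of all genes, 4058 lay under 4.42 on every array, against 3 of the 44 genes and 0 of the 93 genes in the lists below. With genes of a mean signal under 4.42 left out, 22 of 40 genes fell and 4 rose. Over all 10263 genes then left, 3276 fell and 2693 rose, a larger share in both directions than over all 14884 genes. The shares of all genes quoted below include the dim genes, so contrasts with them are larger than with the filtered genes. The median log2 fold change of the 44 genes was -0.32, against -0.048 for all genes. The falls were mostly small, with a median of 1.57-fold and a range of 1.26-fold to 3.48-fold. A fall of at least 2-fold was reached by 4 genes, SDHAF3, COX18, NDUFAF8 and ATP5IF1, and by 7.32% of all genes. None of the 4 rises reached 2-fold, a size that 5.4% of all genes passed upward. In 27 of the 44 genes both F5446 arrays lay below both Ctrl arrays, and in 8 above them, where the background over all genes was 37.7% and 28.4%, or 66.2% without overlap in either direction. These are bulk RNA samples, in which fewer cells expressing a gene and less of its RNA per cell cannot be told apart.

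The counts depended on how the arrays were scaled. Centring each array on the median of its named genes raised the median of all genes by 0.13 and gave 18 falls and 8 rises among the 44, with a median of -0.20. Over all genes the same centring gave 18.4% lower and 23.0% higher. The 4 added rises were UQCRH, UQCRC2, SDHAF2 and ATP5MK, and the 3 falls lost were NDUFAF7, COX6B1 and COX7C.

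**Figure D1:**
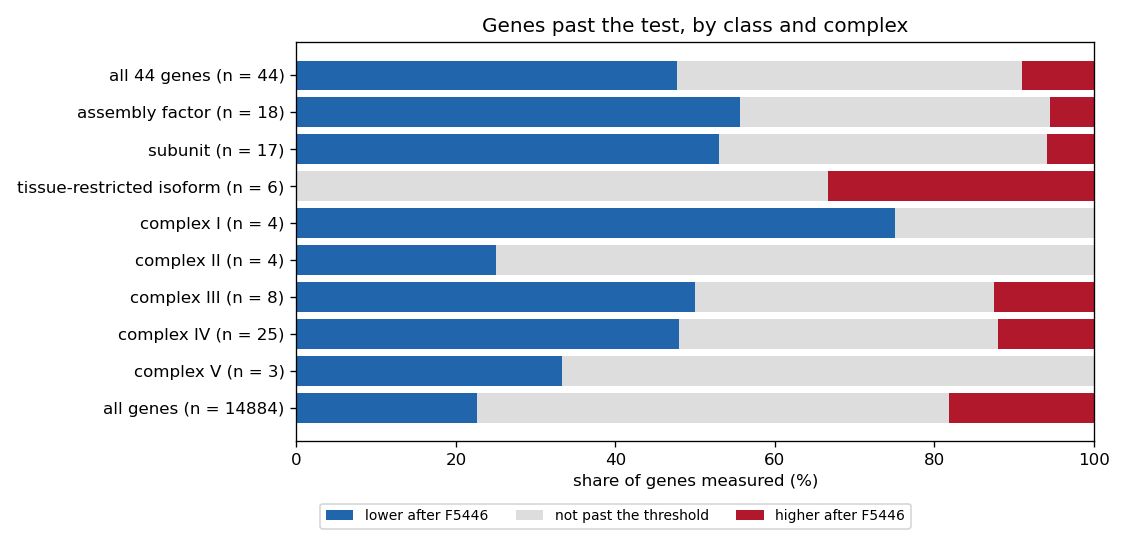
Share of genes (x axis, percent of the genes measured) that were lower, not past the threshold or higher after F5446 in limma's test, for the 44 genes, their classes and complexes, and all 14884 genes. Falls take 55.6% of the assembly factors and 52.9% of the subunits, against 22.7% of all genes, dim genes included. The 6 tissue-restricted isoforms hold 0 falls and 2 rises, where 18.2% of all genes rose.

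Assembly factors and subunits fell at close shares, 55.6% and 52.9%, where 22.7% of all genes fell and 18.2% rose. Of the 18 assembly factors, 10 fell, 1 rose and 7 did not pass, with a median log2 fold change of -0.36. Of the 17 ubiquitous subunits, 9 fell, 1 rose and 7 did not pass, with a median of -0.33. The 10 falls among assembly factors ran from 1.28-fold to 3.48-fold with a median of 1.83-fold, and the 9 falls among subunits from 1.26-fold to 1.99-fold with a median of 1.47-fold. The difference between the classes was not tested. With dim genes left out, 10 of 18 assembly factors fell and 1 rose, and 10 of 17 subunits fell and 2 rose. Of the 10263 genes then left, 3276 fell and 2693 rose. After centring, 9 assembly factors fell and 2 rose, and 7 subunits fell and 4 rose. Over all genes centring gave 18.4% lower and 23.0% higher, and the share of subunits that rose lies near that background.

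**Figure D2:**
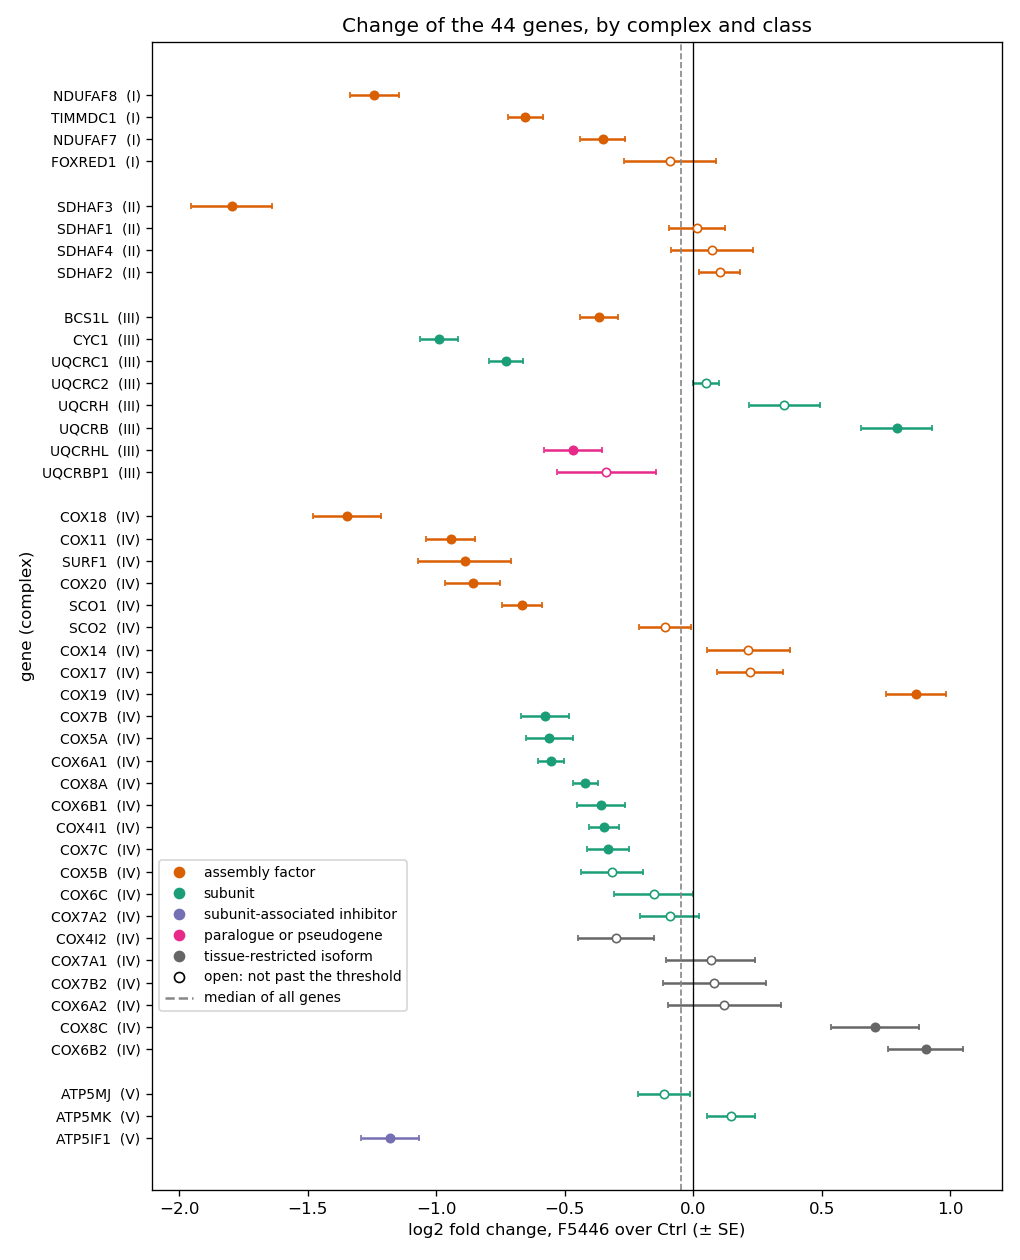
Log2 fold change of each of the 44 genes, F5446 over Ctrl (x axis, with SE from limma's fit, 2 arrays per group), ordered down the page by complex and coloured by class. Filled points passed the test, and the dashed line is the median of all genes at -0.048. SDHAF3 lies farthest to the left at -1.80, and COX6B2 farthest to the right at 0.90.

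Complex I was measured through its assembly factors, of which 3 of 4 fell, where 22.7% of all genes fell. NDUFAF8 (probe set 16838787), which stabilises another assembly factor, NDUFAF5, had log2 signals of 7.852 and 7.924 in F5446 cells, against 9.002 and 9.256 in Ctrl cells. The groups were more than 1 log2 unit apart, a 2.36-fold fall (log2 fold change -1.24 ± 0.09, SE, adjusted p = 7.08e-06). TIMMDC1 (16944386), an inner membrane protein that helps build the membrane arm, had 9.70 and 9.74 in F5446 cells, against 10.29 and 10.46 in Ctrl cells. It fell 1.57-fold, with no overlap between the groups (adjusted p = 5.05e-05). NDUFAF7 (16879145), a methyltransferase acting on a core subunit, had 7.49 and 7.37 in F5446 cells, against 7.79 and 7.78 in Ctrl cells. This 1.28-fold fall (adjusted p = 0.010) missed the threshold without F5446 replicate 2 or Ctrl replicate 1. It also missed it with the arrays centred (adjusted p = 0.078) and with all probe sets adjusted together. FOXRED1, an oxidoreductase needed for assembly, had 7.12 and 6.51 in F5446 cells, which spanned the 6.97 and 6.84 of Ctrl cells.

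Among the complex II assembly factors 1 of 4 fell, and it changed more than any other of the 44 genes. SDHAF3 (17048686), which acts in the maturation of the iron-sulphur subunit SDHB, had 4.38 and 4.26 in F5446 cells, against 6.27 and 5.97 in Ctrl cells. That is a 3.48-fold fall (log2 fold change -1.80 ± 0.16, SE, adjusted p = 1.74e-05), and both F5446 signals lay under 4.42, where dim signals can understate a fold. SDHAF1, which works beside SDHAF3 on SDHB, had 6.48 and 6.47 in F5446 cells, within the 6.40 to 6.52 of Ctrl cells. SDHAF2, which helps attach the flavin to SDHA, had 8.35 and 8.29 in F5446 cells and 8.17 and 8.27 in Ctrl cells (adjusted p = 0.37, or 0.045 with the arrays centred). SDHAF4, which holds flavinated SDHA, had 5.20 and 5.08 in F5446 cells and 5.21 and 4.93 in Ctrl cells, with overlapping groups.

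Subunits of complex III changed in both directions, as did genes at large. Of the 5 subunits 2 fell and 1 rose, where 22.7% of all genes fell and 18.2% rose. The share of these subunits that rose lies near that background. CYC1 (17073565), the haem subunit that reduces cytochrome c, had 8.03 and 7.99 in F5446 cells, against 9.04 and 8.96 in Ctrl cells. UQCRC1 (16953568), core protein 1, had 9.05 and 8.96 in F5446 cells, against 9.72 and 9.75 in Ctrl cells. Both fell with groups far apart, CYC1 by 1.99-fold (adjusted p = 6.11e-06) and UQCRC1 by 1.66-fold (1.91e-05). UQCRC2 (16816739), its partner core protein, had 10.91 and 10.94 in F5446 cells and 10.84 and 10.91 in Ctrl cells. Its log2 fold change was 0.051 ± 0.051 (SE, adjusted p = 0.51). Centring the arrays made it 0.18 (adjusted p = 0.017). UQCRB (17079362), a small subunit near the ubiquinone site, rose 1.73-fold, with 6.42 and 6.30 in F5446 cells, against 5.70 and 5.44 in Ctrl cells (adjusted p = 0.0013). BCS1L (16890970), the ATPase that inserts the Rieske iron-sulphur protein, fell 1.29-fold, with 8.05 and 8.04 in F5446 cells, against 8.43 and 8.40 in Ctrl cells (adjusted p = 0.0033).

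Copies of complex III genes add a limit to these values. UQCRHL, a copy of the hinge protein gene UQCRH, is so close to it in sequence that their signals may be shared. UQCRH had 6.63 and 6.98 in F5446 cells, against 6.53 and 6.37 in Ctrl cells (log2 fold change 0.35, adjusted p = 0.072). UQCRHL had 8.75 and 9.04 in F5446 cells, against 9.22 and 9.50 in Ctrl cells (log2 fold change -0.47, adjusted p = 0.0090). The probe sets of the pair thus had opposite signs. The UQCRHL call was lost without F5446 replicate 1 or Ctrl replicate 2, without the intensity trend and with all probe sets adjusted together. UQCRH passed without F5446 replicate 1, with dim genes left out (adjusted p = 0.049) and with the arrays centred (0.018). UQCRBP1, a pseudogene of UQCRB, had 3.91 and 4.29 in F5446 cells and 4.58 and 4.30 in Ctrl cells, a log2 fold change of -0.34 (adjusted p = 0.22) with a sign opposite to that of UQCRB.

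All 10 ubiquitous subunits of complex IV had a negative log2 fold change, as did 8234 of all 14884 genes. Of the 10 subunits 7 fell, where 22.7% of all genes fell. With quantile normalization the 10 subunits were again negative and 8 fell. After centring COX7A2 changed sign and 5 fell, where 18.4% of all genes fell. With the mean of all probe sets of a gene, COX6A1 changed sign and 6 fell. The 7 falls lay within a narrow range of 1.26-fold to 1.49-fold. COX7B (17105010), a small membrane subunit, had 7.403 and 7.297 in F5446 cells, against 7.858 and 7.998 in Ctrl cells (adjusted p = 8.13e-04). COX5A (16811739), a subunit facing the matrix, had 10.211 and 10.462 in F5446 cells, against 10.797 and 10.998 in Ctrl cells (adjusted p = 8.95e-04). COX8A (16726183), a membrane subunit, had 11.13 and 11.18 in F5446 cells, against 11.61 and 11.53 in Ctrl cells (adjusted p = 1.05e-04). In each of these 3 genes the groups did not overlap, and the falls were 1.49-fold, 1.48-fold and 1.34-fold. COX4I1, the ubiquitous form of a subunit that binds ATP, fell 1.27-fold (adjusted p = 0.0013). COX6B1 and COX7C fell 1.28-fold and 1.26-fold, the smallest falls with COX4I1, and both calls depended on single arrays. Both missed the threshold without F5446 replicate 1, with the arrays centred and with all probe sets adjusted together. COX6B1 also missed it without Ctrl replicate 1, and COX7C without Ctrl replicate 2 and without the intensity trend. COX5B, COX6C and COX7A2 did not pass, with log2 fold changes of -0.32, -0.15 and -0.091. COX5B passed without Ctrl replicate 2 (adjusted p = 0.043), with the dim genes removed (0.044) and after quantile normalization (0.038).

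COX6A1, a further ubiquitous subunit of complex IV, had disagreeing probe sets. The brighter one (17008088), used in all counts here, had 11.28 and 11.18 in F5446 cells, against 11.80 and 11.77 in Ctrl cells, and fell 1.47-fold (adjusted p = 2.83e-05 over all named probe sets). The dimmer one (16757886) had 4.15 and 4.43 in F5446 cells, against 3.76 and 3.15 in Ctrl cells. It rose, opposite to the brighter one, by 0.83 ± 0.23 on the log2 scale (SE, adjusted p = 0.017 over all named probe sets), at signals around or under 4.42. The mean of both probe sets gave a log2 fold change of 0.14 (adjusted p = 0.40). Without COX6A1, UQCRHL and UQCRBP1, 19 of 41 genes fell and 4 rose, an alternative chosen after seeing the data.

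Among 9 assembly factors of complex IV, 5 fell, 1 rose and 3 did not pass, beside 22.7% lower and 18.2% higher over all genes. The same 5 falls and 1 rise were counted with the arrays centred and after quantile normalization. Centring gave 18.4% lower and 23.0% higher over all genes. COX18 (16976734), which inserts the tail of the mitochondrially encoded subunit MT-CO2 into the membrane, had 6.09 and 6.34 in F5446 cells, against 7.42 and 7.70 in Ctrl cells. It fell 2.54-fold (log2 fold change -1.35 ± 0.13, SE, adjusted p = 3.57e-05). COX20 (16679557), a chaperone of the same subunit, had 7.84 and 8.03 in F5446 cells, against 8.94 and 8.65 in Ctrl cells, a 1.81-fold fall (adjusted p = 1.77e-04). These factors of MT-CO2 insertion thus both fell with groups that did not overlap. SURF1, an early assembly factor mutated in Leigh syndrome, had 5.39 and 4.87 in F5446 cells, against 6.01 and 6.03 in Ctrl cells, and fell 1.85-fold (adjusted p = 0.0032). Its F5446 arrays differed by more from each other than those of any other fallen gene of the 44. COX14, which acts early with the subunit MT-CO1, had 6.59 and 6.46 in F5446 cells and 6.55 and 6.07 in Ctrl cells (adjusted p = 0.36, or 0.048 without Ctrl replicate 1).

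The copper-handling factors of complex IV moved in different directions. COX11 (16846849), which delivers copper to the CuB site, had 6.81 and 6.70 in F5446 cells, against 7.73 and 7.67 in Ctrl cells, and fell 1.92-fold (adjusted p = 4.02e-05). SCO1 (16841425), which serves the CuA site, had 9.25 and 9.04 in F5446 cells, against 9.80 and 9.81 in Ctrl cells, and fell 1.59-fold (adjusted p = 1.07e-04). COX19 (17054302), a small protein of the intermembrane space, rose 1.83-fold, with 7.02 and 6.91 in F5446 cells, against 6.01 and 6.19 in Ctrl cells (adjusted p = 2.56e-04). COX19 was the one assembly factor that passed upward, and its groups did not overlap. SCO2, the paralogue of SCO1, had 6.69 and 6.65 in F5446 cells and 6.75 and 6.81 in Ctrl cells (adjusted p = 0.47). COX17, the copper chaperone that supplies SCO1 and COX11, had 6.29 and 6.14 in F5446 cells and 5.90 and 6.08 in Ctrl cells (adjusted p = 0.22).

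**Figure D3:**
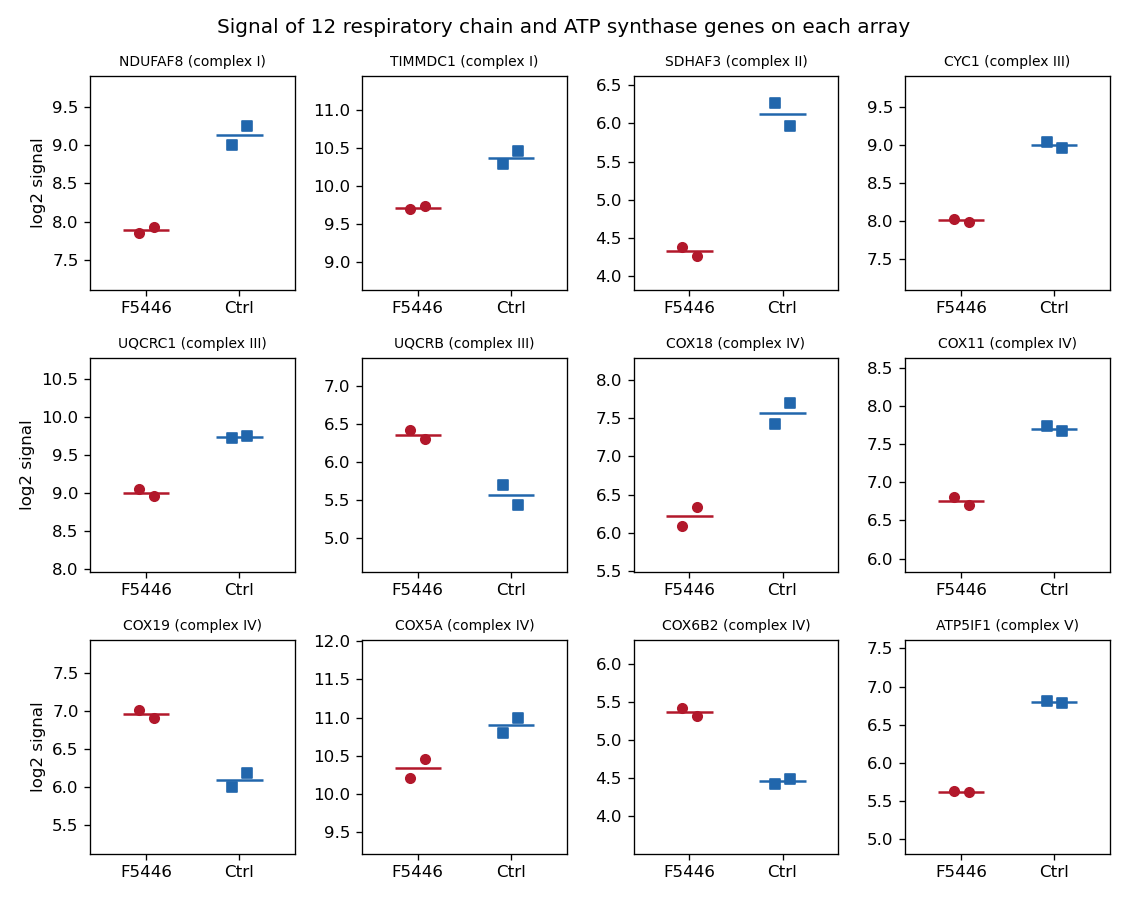
Log2 signal of 12 of the genes on each array, with 1 panel per gene. Circles are the 2 F5446 arrays, squares the 2 Ctrl arrays and bars the group means, and the y axis spans the same number of log2 units in each panel. UQCRB, COX19 and COX6B2 lie higher in F5446 cells and the other 9 genes lower. Most of the 12 were picked among genes whose groups do not overlap, so the lack of overlap in the panels is no result. Over all genes, 66.2% had no overlap.

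Among 6 tissue-restricted isoforms of complex IV subunits, 0 fell and 2 rose, beside 22.7% lower and 18.2% higher over all genes. With dim genes left out 3 isoforms remained, of which 1 rose and 0 fell. COX6B2 (16875734), the testis form, had 5.41 and 5.31 in F5446 cells, against 4.42 and 4.49 in Ctrl cells, and rose 1.87-fold (adjusted p = 8.87e-04), while COX6B1 fell. COX8C (16787751), another testis form, had 3.27 and 3.43 in F5446 cells, against 2.74 and 2.54 in Ctrl cells. Its 1.63-fold rise (adjusted p = 0.0092) lay under 4.42 on every array, so that the filter on dim genes removes it, and it was lost without F5446 replicate 2 (adjusted p = 0.079) or Ctrl replicate 2 (0.060). The lung form COX4I2 had 4.87 and 5.01 in F5446 cells and 5.30 and 5.19 in Ctrl cells, a log2 fold change of -0.30 (adjusted p = 0.15). The muscle forms COX6A2 and COX7A1 and the testis form COX7B2 had log2 fold changes of 0.12, 0.068 and 0.082 with overlapping groups, and COX7A1 and COX7B2 lay under 4.42 on all arrays. Whether an isoform changed differently from its counterpart was not tested.

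Of the 3 ATP synthase genes, the inhibitor fell and the small membrane subunits did not pass, where 22.7% of all genes fell. ATP5IF1 (16661533), a matrix peptide that blocks the reverse, ATP-consuming reaction, had 5.63 and 5.61 in F5446 cells, against 6.81 and 6.79 in Ctrl cells. It fell 2.26-fold (log2 fold change -1.18 ± 0.11, SE, adjusted p = 2.92e-05), and the replicate arrays were nearly level in either group. ATP5MJ had 6.70 and 6.74 in F5446 cells and 6.80 and 6.87 in Ctrl cells (adjusted p = 0.44). ATP5MK had 7.45 and 7.37 in F5446 cells and 7.22 and 7.31 in Ctrl cells, groups that did not overlap but whose difference missed the threshold (adjusted p = 0.26, or 0.043 with the arrays centred).

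Other factors of the chain, outside the symbol rule, fell at a share close to that of the members. Of 35 measured, 18 fell (51.4%) and 2 rose, with a median log2 fold change of -0.26, beside 22.7% lower and 18.2% higher over all genes. COA3, which stabilises newly made MT-CO1, had 7.05 and 6.98 in F5446 cells, against 8.46 and 8.58 in Ctrl cells, and fell 2.83-fold (adjusted p = 1.38e-06), the largest fall of this list. The largest rise was that of PET100, a complex IV assembly factor, at 1.43-fold (adjusted p = 0.0090), which missed the threshold without F5446 replicate 1 (0.11) or Ctrl replicate 2 (0.074). Without single arrays 14 to 16 genes of the list fell and 0 or 1 rose, and with the arrays centred 14 fell and 4 rose.

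Genes that make or bind ubiquinone or feed electrons into it fell in 11 of 12 cases and rose in 1, with a median of -0.90. Over all genes 22.7% fell and 18.2% rose. CHDH, choline dehydrogenase, had 5.68 and 5.77 in F5446 cells, against 8.39 and 8.18 in Ctrl cells, and fell 5.91-fold (adjusted p = 2.48e-07). The rise was that of COQ10B, a ubiquinone-binding protein, with 8.29 and 8.46 in F5446 cells, against 7.21 and 7.41 in Ctrl cells, a 2.09-fold change (adjusted p = 2.71e-05). Fewer genes of this list passed with 1 array left out, between 7 and 10 falls, with 7 without F5446 replicate 2 or without Ctrl replicate 1. With the arrays centred 8 fell and 1 rose, against 18.4% lower and 23.0% higher over all genes.

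Genes of the tricarboxylic acid cycle and of pyruvate entry, which supply NADH to complex I and succinate to complex II, fell in 9 of 14 cases and rose in 3. Their median was -0.32. Over all genes 22.7% fell and 18.2% rose, and the 21.4% of the list that rose lies near that background. MPC2, a subunit of the mitochondrial pyruvate carrier, fell 2.63-fold, with 7.05 and 7.40 in F5446 cells, against 8.52 and 8.71 in Ctrl cells (adjusted p = 1.90e-05). PDP1, the phosphatase that reactivates pyruvate dehydrogenase, rose 3.91-fold, with 7.71 and 7.88 in F5446 cells, against 5.65 and 6.01 in Ctrl cells (adjusted p = 4.06e-06). Falls numbered 5 without either F5446 replicate, 6 without Ctrl replicate 1 and 8 without Ctrl replicate 2, with 1 rise in each case. Centred arrays gave 5 falls and 3 rises, and 5 falls and 1 rise were left without the intensity trend or with all probe sets adjusted together.

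Of 8 measured nuclear factors known to act on respiratory chain genes, 5 rose and 0 fell, with a median of 0.46, beside 18.2% higher and 22.7% lower over all genes. With the arrays centred 5 also rose, against 23.0% of all genes. Rises numbered 4 without either F5446 replicate, without Ctrl replicate 2 and with all probe sets adjusted together. PPARD, a fatty acid-sensing nuclear receptor, rose 2.40-fold, with 9.29 and 9.28 in F5446 cells, against 8.01 and 8.03 in Ctrl cells (adjusted p = 9.06e-07), the largest rise of the list. ESRRA, a nuclear receptor that drives genes of oxidative metabolism, rose 1.83-fold, with 7.61 and 7.55 in F5446 cells, against 6.69 and 6.72 in Ctrl cells (adjusted p = 5.98e-05). ESRRA was picked from the list after its value was seen. The other rises were those of MYC (2.28-fold, adjusted p = 2.50e-07), SP1 (1.49-fold, 1.57e-04) and CREB1 (1.26-fold, 0.013). NRF1, which binds many promoters of respiratory chain genes, had 7.24 and 7.48 in F5446 cells and 7.43 and 7.33 in Ctrl cells, with overlapping groups (log2 fold change -0.021 ± 0.11, SE, adjusted p = 0.92).

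**Figure D4:**
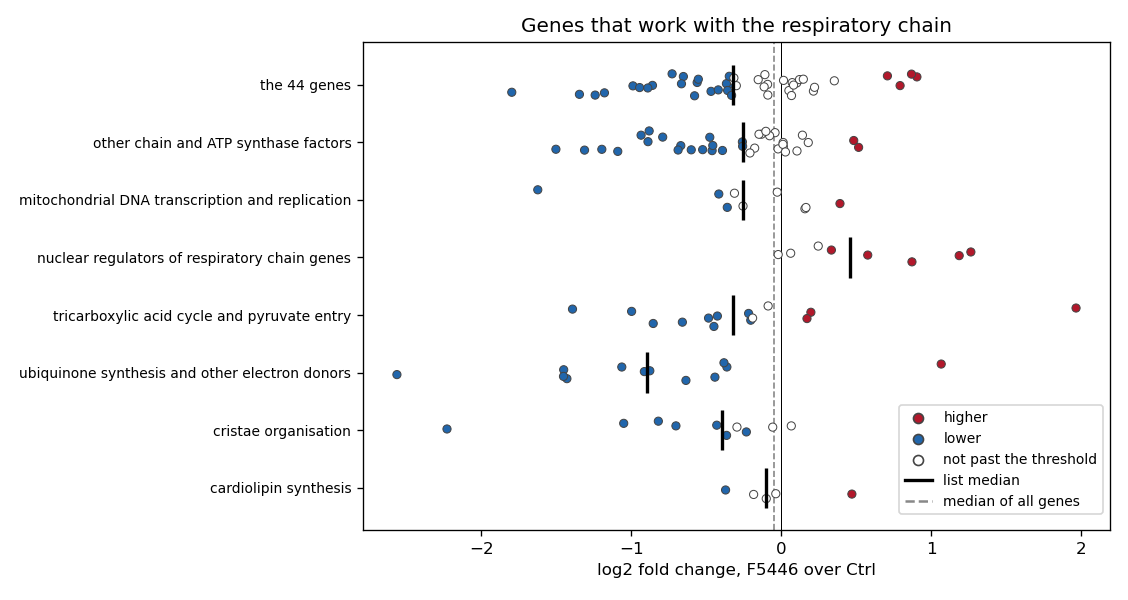
Log2 fold change, F5446 over Ctrl (x axis), of the 44 genes and of 7 lists of genes that work with the chain (rows); each point is a gene, filled where it passed the test, and thick bars are list medians. The nuclear regulators have a median of 0.46, and the ubiquinone and electron donor list has the lowest median, -0.90, beside -0.048 for all genes.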

How the data were processed

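RNA was measured on single-colour arrays. The authors deposited 53617 probe set values per array, read here as log2 signal because all lie between 0.710 and 13.8; the scale is inferred. Per the submitters' processing notes, Partek was used. The steps for background, normalization and summary, not given in the sources used here, may include scaling between arrays, which would hide a change in total RNA. There are no detection calls. The platform annotation names 16098 probe sets, covering 14884 genes; the other 37519 are unnamed here. For 779 genes with several, the probe set with the highest mean was used. Genomic positions and sequences were not used here.

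The deposited log2 values entered limma 3.58.1 under R 4.3.3: a linear model of group over all 4 arrays with trended empirical Bayes variances. P-values are two-sided and Benjamini-Hochberg adjusted over 14884 genes, with a threshold of 0.05. The fit was tested on simulated data. Precision is limited by 2 arrays per group. Members and lists were chosen with earlier results of these data known, so their counts are descriptions. Values on every array are given for the largest changes per complex, for genes with several probe sets and for paralogue pairs. The largest changes were taken among genes whose F5446 arrays both lay beyond both Ctrl arrays, so their lack of overlap was set by that choice. Other settings were array centring, quantile normalization, a filter at the median of all values (4.42), other variance models, probe set means, a replicate block, left-out arrays and a fit of all probe sets.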

Additional observations from a re-analysis of the deposited data

Results flagged for a closer look

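COX6A1 has a second, dimmer probe set that entered none of the counts. It lay higher in F5446 cells than in Ctrl cells, by 0.83 on the log2 scale (limma adjusted p = 0.017), a signal in data outside the main comparison. The brighter probe set changed by -0.55. Whether either probe set reads COX6A1 in these cells was not tested.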

How the results depend on the processing

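Of the 25 genes past the threshold, 19 kept their direction and their side of it in all settings run. The others were NDUFAF7, COX6B1, COX7C, COX8C and UQCRHL, which missed it in some, and COX6A1, which changed sign to 0.14 with the mean of its probe sets. Centring the arrays gave a median log2 fold change of 0.078 for all genes, -0.20 for the 44 genes and -0.20 for subunits. It gave 8 rises among the 44, 4 among subunits and 2 among assembly factors, beside 23.0% higher over all genes. It turned the sign of ATP5MJ (0.012), COX7A2 (0.035), FOXRED1 (0.037) and SCO2 (0.017). Quantile normalization gave a median of -0.074 for all genes and a value of -0.030 for SDHAF1. Without dim genes 2 subunits rose. With 1 array left out the median of the 44 genes ran from -0.37 to -0.22, and rises among subunits and among assembly factors from 1 to 2. Genes that did not pass changed sign over the left-out arrays, with ranges of -0.028 to 0.46 for COX14, -0.15 to 0.39 for COX6A2, -0.067 to 0.20 for COX7A1, -0.15 to 0.31 for COX7B2, -0.39 to 0.21 for FOXRED1, -0.048 to 0.078 for SDHAF1 and -0.070 to 0.22 for SDHAF4. The cause was not tested, except that the filter tests fewer genes and left-out arrays leave fewer samples; a lone array is assumed to vary like the other group. With the replicate number as a block 21 genes fell and 4 rose, as without it. Deviations of same-numbered arrays correlated at 0.044 over genes, and no label says that the numbers pair the arrays.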

Other observations

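Other gene lists close to the chain held the following values. Of 10 measured genes of cristae organisation, the folding of the inner membrane that holds the chain, 7 fell and 0 rose, with a median log2 fold change of -0.40, beside 22.7% lower over all genes. APOO, a subunit of the complex that shapes cristae junctions, had log2 signals of 6.35 and 6.52 in F5446 cells, against 8.54 and 8.80 in Ctrl cells, and fell 4.69-fold (limma adjusted p = 5.75e-07). Centring the arrays gave 5 falls and 1 rise. Of 9 genes of mitochondrial DNA transcription and replication, 3 fell (33.3%) and 1 rose (11.1%), near the 22.7% lower and 18.2% higher of all genes. Their median was -0.26, which became 0.014 without F5446 replicate 1. PRIMPOL, a primase-polymerase of nuclear and mitochondrial DNA, fell 3.08-fold, with 5.61 and 5.68 in F5446 cells, against 7.23 and 7.30 in Ctrl cells (adjusted p = 3.24e-06). TWNK, the mitochondrial helicase, rose 1.31-fold (adjusted p = 0.0031). Without F5446 replicate 1 the list held 1 fall, and without F5446 replicate 2 or Ctrl replicate 2 it held 2. Centred arrays gave 1 fall and 2 rises. Of 5 genes that make, remodel or bind cardiolipin, a lipid of the inner membrane, 1 fell and 1 rose, near the same background. The fall was that of STOML2, a cardiolipin-binding protein (1.29-fold), and the rise that of PGS1, a synthesis gene (1.39-fold). The median was -0.10, or 0.026 with the arrays centred. PGS1 missed the threshold without F5446 replicate 1 (adjusted p = 0.053).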
